A study of Mus musculus with 6 samples.

Results

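Sorted bone marrow progenitors carrying the leukemia oncogene BCR-ABL were compared with the same gate of cells carrying an empty virus, across all named genes of a whole-transcript array. The comparison uses 4 of the 6 arrays of the series, 2 labelled as vector-expressing stem cells and 2 as BCR-ABL-expressing leukemic stem cells. They were chosen by their titles. The other 2 arrays, of cells with BCR-ABL and the kinase Blk, entered the estimate of the spread. Donor marrow came from wild-type C57BL/6 mice pre-treated with 5-fluorouracil, and was infected with retrovirus carrying GFP alone (vector) or GFP together with BCR-ABL (BCR-ABL-GFP) or with BCR-ABL and Blk (BCR-ABL-Blk-GFP). It was then transplanted into recipients of that strain. The labels give an age of 8 weeks. After 14 days, marrow cells with GFP, c-Kit and Sca-1 and without lineage markers were sorted. Both groups therefore share the drug treatment, the infection and the transplantation. The labels name 2 biological replicates a group and not the number of mice behind each one. A p-value here therefore sets a difference against the spread between these samples.

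BCR-ABL joins the BCR and ABL1 genes into a tyrosine kinase that is always active and signals through the Ras, phosphoinositide 3-kinase and STAT5 pathways. It is the cause of chronic myeloid leukemia, in which a stem cell clone overproduces granulocytes. The gate without lineage markers and with Sca-1 and c-Kit, called LSK, holds hematopoietic stem cells and the multipotent progenitors that give rise to all blood lineages.

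Levels are log2 array signals after quantile normalization, differences are BCR-ABL minus vector, and a difference of 1 is a 2-fold change. Measured genes numbered 19938, with a median level of 7.50, a median difference of 0.02 and a median standard error of 0.129. The 2 vector arrays resembled each other less (r = 0.987 across genes, which are not independent) than the 2 BCR-ABL arrays (r = 0.994). The sort was checked against its markers. Kit, the c-Kit receptor, read 10.71 and 10.92 on the vector and 10.43 and 10.43 on the BCR-ABL arrays, a difference of −0.39 (limma adjusted p = 0.533). Ly6a, which encodes Sca-1, was not analysed here. The 8 measured lineage genes had a median level between 6.66 and 7.02 on each of the 4 arrays. The fusion transcript was not read on its own here. Of its parent genes, the difference was −0.20 for Abl1 (adjusted p = 0.789) and −0.13 for Bcr (adjusted p = 0.846).

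More genes were higher than lower in BCR-ABL cells at the threshold of an adjusted p below 0.05 (limma, two-sided, Benjamini-Hochberg over all genes). In BCR-ABL cells 24 genes rose (0.12% of those tested) and 5 fell (0.0251%), and 20 and 4 of them by at least 2-fold. The genes that rose include a pair of aldo-keto reductases, the protease granzyme B, the cytokine Il6, the leukotriene enzyme Alox5, and several membrane and cytoskeletal genes. The 5 that fell were Klrd1, H2-Ab1, Cybb, Tifab and Cst3. At an unadjusted p below 0.05 there were 1131 higher genes (5.67%) and 591 lower genes (2.96%). Both BCR-ABL arrays lay above both vector arrays for 4406 genes (22.1%) and below both for 2974 (14.9%). A difference above 0 was found for 10827 genes (54.3%). These shares are the background for every count below. Genes picked by a small p-value or a large difference between these arrays mostly do not overlap because of that choice.

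The counts depended on single arrays. Without vector replicate 1 there were 347 higher and 160 lower genes, and without vector replicate 2 there were 70 and 144; both sets hold all 24 and 5 genes. Without either BCR-ABL array only Akr1c12 passed, and 0 genes were lower, against 1222 and 1056 genes at an unadjusted p below 0.05. The share of higher genes among those called was 82.8%. It was 43.9% on the deposited values without scaling between arrays, where 176 genes were higher and 225 lower and the median gene differed by −0.11. Leaving out a BCR-ABL-Blk array left 2 lower genes with either replicate removed. A further 18 higher and 11 lower genes had adjusted p-values between 0.05 and 0.06, so the boundary falls in a dense stretch.

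**Figure D1:**
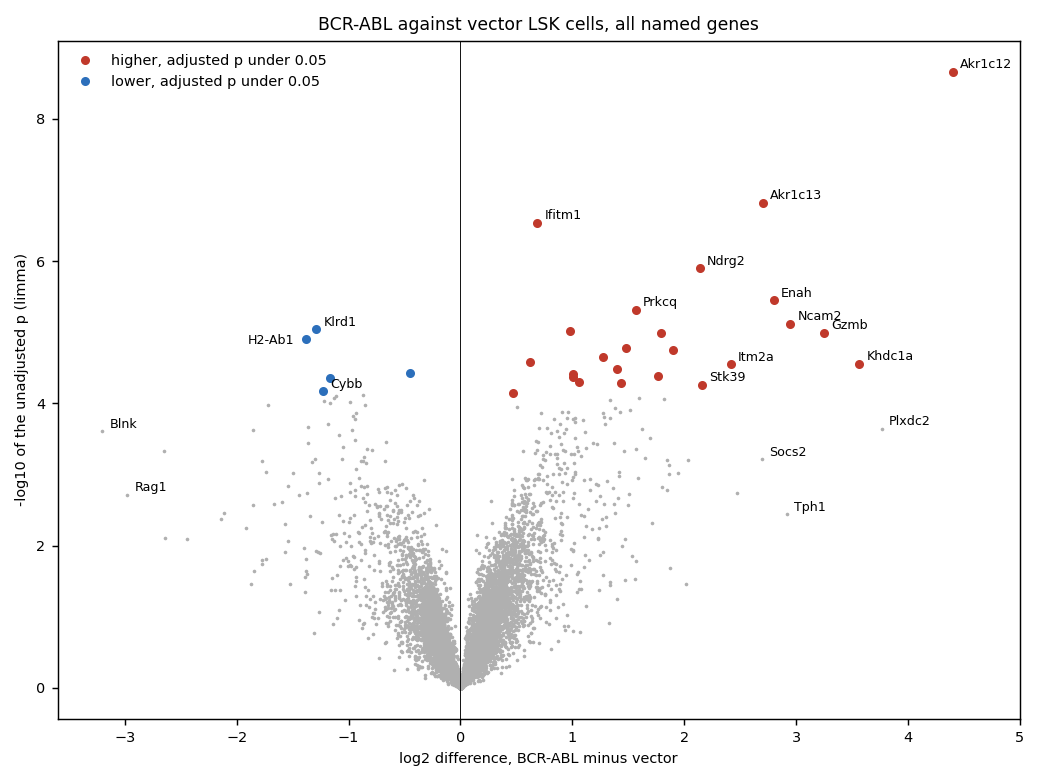
Each point is 1 of 19938 named genes, with the log2 difference of BCR-ABL minus vector on the horizontal axis and −log10 of the unadjusted limma p on the vertical axis; red and blue points passed the adjusted threshold. Akr1c12 stands highest at a difference of 4.40, and Plxdc2 and Blnk are large differences below the called genes.

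The smallest p-values belonged to a pair of aldo-keto reductases, cytosolic enzymes that reduce aldehydes, ketones and steroids with NADPH. Akr1c12 read 6.98 and 6.87 in vector cells and 11.43 and 11.22 in BCR-ABL cells. That is a 21.1-fold rise, or 4.40 on the log2 scale with a standard error of 0.13 (limma adjusted p = 4.3e-05). It was the only gene to pass under each of the 17 alternative settings tried. Akr1c13, a close relative, read 8.99 and 8.60 on the vector and 11.57 and 11.43 on the BCR-ABL arrays, a rise of 2.70 ± 0.14 (SE, adjusted p = 0.00151). Neither gene's groups overlapped. The differences of Akr1c18 (1.51, adjusted p = 0.174) and Akr1c19 (1.18, 0.282) did not pass. Of 15 measured aldo-keto reductases 2 rose, 12 were above 0, and the median difference was 0.03. Without scaling between arrays that median was −0.09, near the −0.11 of all genes. These genes are close copies, and whether their probe sets share signal was not tested.

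The promoters of Akr1c12 and Akr1c13 are shown because the genes with the first and second smallest p have nearly the same upstream sequence. Each runs from 250 bases before to 50 bases after the gene's start in RefSeq (GRCm38.p6). They lie at chr13:4279350-4279649 on the minus strand for Akr1c12 and at chr13:4190937-4191236 on the plus strand for Akr1c13. Of 304 aligned positions 284 were identical (93.4%). Capitals mark the 16 bases of each sequence that differ from, or have no partner in, the other.
Akr1c12: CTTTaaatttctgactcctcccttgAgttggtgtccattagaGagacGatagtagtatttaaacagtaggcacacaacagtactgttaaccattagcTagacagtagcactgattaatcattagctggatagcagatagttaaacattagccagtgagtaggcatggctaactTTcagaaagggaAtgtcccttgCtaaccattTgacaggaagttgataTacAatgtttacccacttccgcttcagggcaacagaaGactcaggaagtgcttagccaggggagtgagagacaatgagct
Akr1c13: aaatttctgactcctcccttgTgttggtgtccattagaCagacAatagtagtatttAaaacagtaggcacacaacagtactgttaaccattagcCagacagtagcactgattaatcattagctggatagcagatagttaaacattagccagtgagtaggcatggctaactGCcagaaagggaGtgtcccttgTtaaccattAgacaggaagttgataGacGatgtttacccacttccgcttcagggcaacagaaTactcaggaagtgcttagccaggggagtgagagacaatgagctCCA
The differences are spread along the window, and no long stretch belongs to 1 gene alone.

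STAT5, a factor that BCR-ABL activates, recognises the palindrome TTCNNNGAA, which reads the same on both strands. This motif was searched in the promoters of the called genes. Promoters were found for 18 of the 24 genes that rose and 3 of the 5 that fell; Ccn3, H2-Ab1, Khdc1a, Klrd1, Lrp12, Perp, Podxl and Ppic had none in the table. The motif was in 4 of the 21 promoters of genes that rose (19%), in 0 of 3 of genes that fell, and in 8.3% of all 32851 promoters. Those 4 belong to 3 genes, because 2 overlapping promoters of Ctla2a hold the same match. TGACNNNGC, the core that Nrf2 binds, was searched on both strands. It was in 4 of the 21 (19%), in 0 of 3, and in 12.4% of all promoters. Those 4 also belong to 3 genes, Ndrg2, Ctla2a and Cd48, because the 2 overlapping promoters of Ctla2a hold the same match. The stretches around the TTCNNNGAA matches are shown with the motif in capitals, at chr13:60936754-60936802 (minus strand) for Ctla2a, chr14:56262285-56262317 (minus strand) for Gzmb and chr1:40085962-40086010 (plus strand) for Il1r2.
Ctla2a: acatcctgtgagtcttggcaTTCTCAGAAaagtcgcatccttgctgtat
Gzmb: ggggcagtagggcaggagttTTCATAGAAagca
Il1r2: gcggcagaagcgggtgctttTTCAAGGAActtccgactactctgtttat
The Gzmb match lies 37 bases after the start, that of Il1r2 111 bases before it, and that of Ctla2a 157 or 216 bases before it, depending on the start. The matches are a description of these letters.

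A protease gene and protease inhibitor genes were among the called genes, with changes of unlike size. Gzmb encodes granzyme B, a serine protease of killer cell and mast cell granules. It read 7.22 and 7.22 in vector cells and 10.39 and 10.55 in BCR-ABL cells, a 9.52-fold rise (log2 3.25 ± 0.31 SE, limma adjusted p = 0.0187). The vector arrays were nearly equal, and both BCR-ABL arrays were far above them. The other 9 granzymes measured did not pass, and the next was Gzmc at 0.59 (adjusted p = 0.178). The list's median difference was 0.01. Without scaling between arrays that median was −0.14, against −0.11 for all genes. Ctla2a, a cathepsin inhibitor related to a cathepsin propeptide, read 10.64 and 10.71 on the vector and 11.57 and 11.74 on the BCR-ABL arrays and rose by 0.98 (adjusted p = 0.0187). Its close copy Ctla2b, picked after its values were seen, read 7.79 and 6.90 in vector against 8.97 and 9.10 in BCR-ABL cells and did not pass (1.69, adjusted p = 0.0783). Cst3 encodes cystatin C, a secreted inhibitor of lysosomal cysteine proteases. It read 12.42 and 12.50 on the vector and 12.02 and 12.00 on the BCR-ABL arrays, and fell by 0.45, the smallest change among the called genes (adjusted p = 0.0368). Of 14 cystatins and stefins it was the only one called.

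Among cytokines, receptors and immune surface genes, some rose and others fell. Il6, a cytokine of inflammation and myeloid growth, read 4.29 and 3.83 on the vector and 6.01 and 5.92 on the BCR-ABL arrays, a rise of 1.90 ± 0.20 (SE, limma adjusted p = 0.0254). All 4 levels lie below the median gene, where array signals may understate changes. Il1r2, the decoy receptor that binds interleukin 1 without signalling, read 6.90 and 6.69 in vector against 8.13 and 8.01 in BCR-ABL cells and rose by 1.27 (adjusted p = 0.0293). Cd48, a SLAM family surface protein used to divide LSK cells into stem cells and progenitors, read 11.53 and 11.49 in vector against 11.96 and 12.00 in BCR-ABL cells and rose by 0.47 (adjusted p = 0.0493). Ifitm1, an interferon-induced membrane protein, read 12.18 and 12.13 in vector against 12.83 and 12.85 in BCR-ABL cells, a rise of 0.69 with a small standard error of 0.04 (adjusted p = 0.00191). Klrd1 encodes CD94, a lectin-type receptor known from natural killer cells. It read 6.89 and 6.95 on the vector and 5.76 and 5.50 on the BCR-ABL arrays and fell by 1.29 (adjusted p = 0.0187). H2-Ab1, the beta chain of the MHC class II molecule I-A, read 11.62 and 11.62 in vector against 10.06 and 10.41 in BCR-ABL cells and fell by 1.38 (adjusted p = 0.0207). In none of these genes did the groups overlap, which their choice by adjusted p largely fixes.

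Among signalling genes, Prkcq encodes protein kinase C theta, a kinase of T cell receptor signalling. It read 7.89 and 7.79 on the vector and 9.40 and 9.42 on the BCR-ABL arrays and rose by 1.57 ± 0.13 (SE, limma adjusted p = 0.016). It was the only one called of 20 protein kinase C and diacylglycerol kinase genes, whose median difference was −0.04. Stk39, a Ste20-type kinase that controls cation and chloride cotransporters, read 7.84 and 7.12 in vector against 9.80 and 9.49 in BCR-ABL cells and rose by 2.16 (adjusted p = 0.0406). Ndrg2, a gene linked to growth arrest and stress, read 7.61 and 7.83 in vector against 9.81 and 9.90 in BCR-ABL cells and rose by 2.14 (adjusted p = 0.00631). Tifab, which restrains signalling through TRAF6, read 8.46 and 8.43 in vector against 7.43 and 7.14 in BCR-ABL cells and fell by 1.16 (adjusted p = 0.0368). The vector arrays of Tifab were almost equal, while those of Stk39 lay further apart than its BCR-ABL arrays.

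Adhesion and cytoskeleton genes gave several of the larger rises. Enah encodes Mena, which promotes actin filament growth at the leading edge; it read 7.54 and 8.12 on the vector and 10.70 and 10.56 on the BCR-ABL arrays, a 6.96-fold rise (limma adjusted p = 0.0141). Ncam2, a neural cell adhesion molecule, read 5.33 and 5.43 in vector against 8.51 and 8.15 in BCR-ABL cells, a 7.72-fold rise (adjusted p = 0.0187). Podxl, a sialomucin of the CD34 family, read 7.17 and 7.02 in vector against 8.69 and 9.08 in BCR-ABL cells and rose by 1.79 (adjusted p = 0.0187). The difference of its relative Cd34 itself was 0.20 (adjusted p = 0.507). Rsu1, a partner of the integrin-linked kinase complex, read 11.47 and 11.50 in vector against 12.06 and 12.15 in BCR-ABL cells and rose by 0.62 (adjusted p = 0.0311). Ccn3, a matrix-associated signalling protein, read 6.43 and 6.40 in vector against 8.24 and 8.13 in BCR-ABL cells and rose by 1.77. Perp, a p53 target of desmosomes, read 7.35 and 7.22 in vector against 8.34 and 8.34 in BCR-ABL cells and rose by 1.06. Their adjusted p-values were 0.0368 and 0.0402. For each of the 6 genes that rose here both BCR-ABL arrays were above both vector arrays.

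Enzymes of lipid mediators, glycine and oxygen radicals were also among the called genes. Alox5 encodes 5-lipoxygenase, which makes leukotrienes from arachidonic acid and has been studied as a gene needed by BCR-ABL leukemic stem cells. It read 7.97 and 8.12 on the vector and 9.39 and 9.66 on the BCR-ABL arrays, a rise of 1.48 ± 0.15 (SE, limma adjusted p = 0.0254). Gldc, the glycine decarboxylase of the mitochondrial glycine cleavage system, read 6.48 and 6.50 in vector against 8.15 and 7.69 in BCR-ABL cells and rose by 1.43 (adjusted p = 0.0402). Cybb, which encodes the catalytic chain of the NADPH oxidase of phagocytes, read 10.51 and 10.86 in vector against 9.37 and 9.54 in BCR-ABL cells and fell by 1.23 (adjusted p = 0.0483). The other 8 oxidase genes measured did not pass, and lay between −0.37 (Ncf4) and 0.11 (Nox1).

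The remaining called genes all rose. Khdc1a, a KH-domain gene known from oocytes and early embryos, read 5.31 and 5.29 on the vector and 9.09 and 8.64 on the BCR-ABL arrays, an 11.8-fold rise (limma adjusted p = 0.0311). Itm2a, a membrane protein of the BRICHOS family, read 6.83 and 5.95 in vector against 8.94 and 8.68 in BCR-ABL cells and rose by 2.42 (adjusted p = 0.0311). Its vector arrays differed by 0.877, the widest among the called genes within the vector or the BCR-ABL group. Lrp12, of the LDL receptor family, rose by 1.40, Ppic, the prolyl isomerase cyclophilin C, by 1.01, and Cc2d2a, a protein of the primary cilium base, by 1.01 (adjusted p = 0.0351, 0.0368 and 0.0368). Lrp12 read 8.06 and 7.86 on the vector and 9.28 and 9.44 on the BCR-ABL arrays. Ppic read 10.51 and 10.87 in vector against 11.70 and 11.70 in BCR-ABL cells, and Cc2d2a 6.74 and 6.75 in vector against 7.82 and 7.69 in BCR-ABL cells. Over all 29 called genes the smallest gap between the groups was 0.402, and the median gap within a group was 0.10 for vector and 0.152 for BCR-ABL. In 13 genes that rose the vector mean lay below the median level, so those folds are of low signals.

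On the BCR-ABL-Blk arrays, which carry BCR-ABL too, Akr1c12 read 11.34 and 11.29, between its values on the BCR-ABL arrays. Khdc1a read 7.34 and 5.95 there, Gldc 7.06 and 6.78 and Il1r2 7.17 and 7.39. For these genes at least 1 BCR-ABL-Blk array was closer to the vector than to the BCR-ABL level; the difference between the oncogene groups was not tested here.

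**Figure D2:**
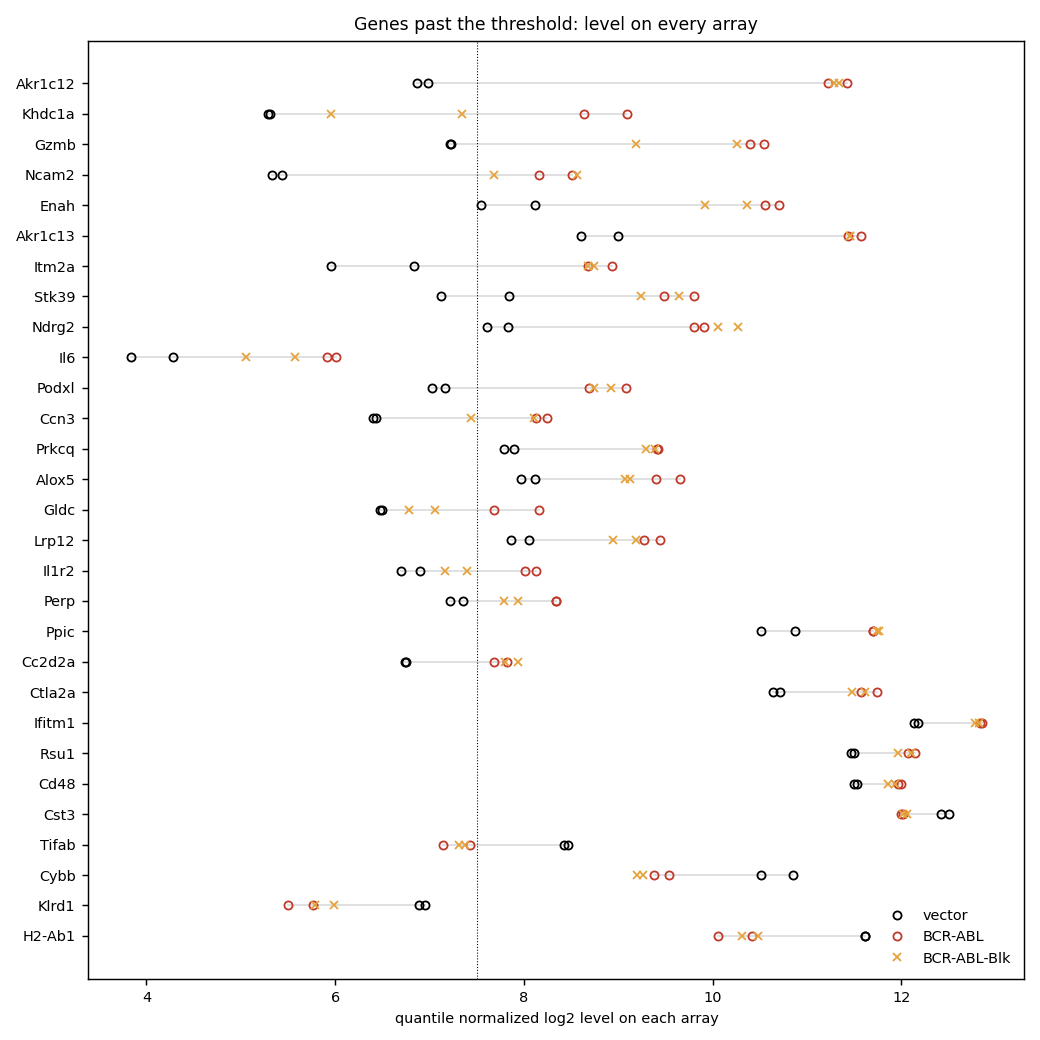
Each line is 1 of the 29 called genes and each mark 1 array, on a log2 level axis: black circles vector, red circles BCR-ABL, yellow crosses BCR-ABL-Blk, with a dotted line at the median gene (7.50). In every gene the black and red circles are apart, by at least 0.402.

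Just past the threshold stood 20 genes of at least 2-fold difference that did not pass, with adjusted p-values from 0.0502 to 0.0634. Of these, 6 were lower in BCR-ABL cells. Themis2, an adaptor of B cell and macrophage signalling, read 9.17 and 9.26 on the vector and 8.10 and 8.12 on the BCR-ABL arrays. Xcr1, the chemokine receptor of cross-presenting dendritic cells, read 8.87 and 8.60 in vector against 7.25 and 6.77 in BCR-ABL cells. Naaa, a lysosomal amidase, had a difference of −1.22, Cox6a2, a cytochrome oxidase subunit, −1.13, H60b, an NKG2D ligand, −1.17, and Cd52, a small leukocyte surface glycoprotein, −1.18. The arrays of all 6 were apart between the groups, which their choice by p and size of difference largely fixes.

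The 14 on the higher side held signalling, receptor and matrix genes. Ecm1, a secreted matrix protein, read 7.41 and 7.59 on the vector and 9.18 and 9.46 on the BCR-ABL arrays, a difference of 1.82. Lat, the adaptor of T cell, mast cell and platelet receptors, read 9.63 and 9.19 in vector against 10.61 and 10.89 in BCR-ABL cells. F2r, the thrombin receptor, read 8.91 and 8.40 in vector against 9.89 and 9.99 in BCR-ABL cells. The differences were 1.60 for Stxbp6, 1.51 for Trim13, a ubiquitin ligase, 1.42 for P3h2, a collagen prolyl hydroxylase, and 1.38 for Arxes2. They were 1.34 for Rps6ka6, a kinase downstream of MAP kinases, 1.29 for Gucy1a1, a subunit of the nitric oxide receptor, and 1.27 for Ccl6, a myeloid chemokine. The last 4 were Scin, an actin-severing protein (1.09), Il12rb2, an interleukin 12 receptor chain (1.03), Ddah1 (1.02) and Maged1 (1.00).

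Several of the largest differences did not pass, and in most of them the vector arrays were apart. The genes named here were picked after their values were seen. Plxdc2, a membrane protein with a plexin-like domain, read 8.34 and 6.23 on the vector and 11.14 and 10.96 on the BCR-ABL arrays, a difference of 3.77 that came second in size only to Akr1c12 (limma adjusted p = 0.0675). Socs2, a feedback inhibitor of STAT5 signalling, read 8.96 and 7.21 in vector against 10.70 and 10.85 in BCR-ABL cells (difference 2.69, adjusted p = 0.103). Mboat2, a phospholipid acyltransferase, read 7.88 and 5.97 in vector against 9.58 and 9.22 in BCR-ABL cells (2.47, 0.171). In these 3 genes vector replicate 1 was the higher vector array, by over 1 on the log2 scale, and still below both BCR-ABL arrays. Tph1, the enzyme that starts serotonin synthesis, read 6.77 and 6.27 in vector against 9.60 and 9.28 in BCR-ABL cells, with 9.71 and 7.13 in BCR-ABL-Blk cells (2.92, 0.224). Its widest gap was within BCR-ABL-Blk cells, whose arrays enter the shared estimate of the spread. On the other side, Blnk, the linker of B cell receptor signalling, read 10.31 and 8.56 in vector against 6.09 and 6.38 in BCR-ABL cells (−3.20, 0.0685). Rag1, the recombinase of lymphoid cells, read 11.17 and 8.94 in vector against 6.94 and 7.21 in BCR-ABL cells (−2.98, 0.174). Igll1, a surrogate light chain of pre-B cells, read 11.71 and 9.38 in vector against 8.02 and 8.18 in BCR-ABL cells (−2.45, 0.322).

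The same unevenness was measured over all large differences. At least 2-fold differences, whatever the test, were found for 129 higher genes, of which 109 did not pass, and for 86 lower genes, of which 82 did not pass. At 4-fold there were 15 and 7. The arrays were apart in 126 of the 129 and 82 of the 86, which a choice by size of difference largely fixes. Over all genes the shares were 22.1% above and 14.9% below. Among the lower genes the median gap between the vector arrays was 1.02, against 0.271 between the BCR-ABL arrays. Among the higher genes it was 0.467 against 0.26, and over all genes 0.145 against 0.118. Vector replicate 1 was above replicate 2 by at least 1 in 38 of the 86 lower genes, and the reverse held in 6. Among the 129 higher genes this was so in 29, and the reverse in 0. The vector arrays were therefore the more variable side in both sets, and more so for the genes that read low in BCR-ABL cells.

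**Figure D3:**
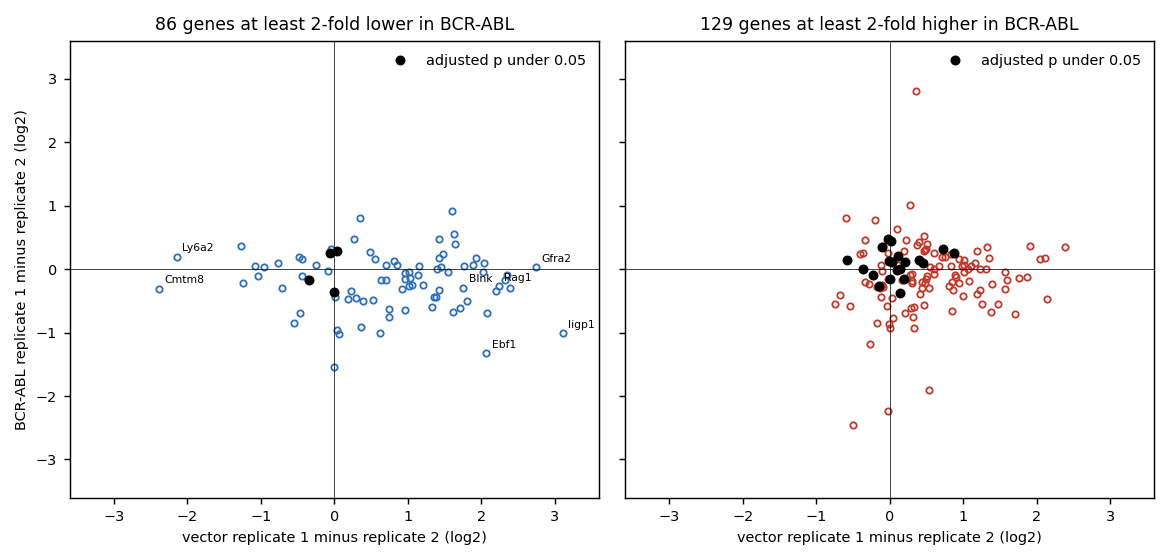
For genes at least 2-fold lower (left, 86) or higher (right, 129) in BCR-ABL cells, the horizontal axis is vector replicate 1 minus replicate 2 and the vertical axis BCR-ABL replicate 1 minus replicate 2, both log2; filled points passed the adjusted threshold. Points spread along the horizontal axis, mostly to the right, and the filled ones all lie within 0.877 of 0 on it.

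Some metabolic gene lists had medians slightly above that of all genes, with few single genes called. Fatty acid oxidation genes shorten acyl chains in mitochondria and peroxisomes. Of 27 measured, 0 passed, 7 had an unadjusted p below 0.05, all higher, 23 were above 0, and the median difference was 0.13 against 0.02 for all genes. Slc25a20, the carnitine carrier, had a difference of 0.57 and Hadh, the hydroxyacyl dehydrogenase, 0.65. Of 19 serine, glycine and one-carbon genes Gldc alone rose, 16 were above 0 and the median was 0.16. Of 19 glycolysis genes 0 passed, 14 were above 0 and the median was 0.15; Slc2a3, a glucose transporter, had 0.42 and Pfkp, a phosphofructokinase, 0.35. The medians of these 3 lists stayed above 0 in all 16 alternatives. Some of those change only the estimate of the spread or the BCR-ABL-Blk arrays and could not move a median. Without scaling between arrays the fatty acid oxidation median was 0.03, against −0.11 for all genes. The list medians varied in size. Leaving out vector replicate 1 took the glycolysis median to 0.08. The one-carbon median was 0.08 when vector replicate 2 was left out and 0.09 when BCR-ABL replicate 1 was. Solute carriers, which move small molecules across membranes, had 27 higher and 8 lower of 377 at an unadjusted p below 0.05 and a median of 0.01. Slc18a2, the vesicular monoamine transporter, had 1.02 (adjusted p = 0.0783) and Slc7a8, an amino acid transporter, 0.90 (0.0851). Mitochondrial respiratory subunits (87 genes, median 0.01) and cytosolic ribosomal proteins (62, median 0.00) held 0 called genes.

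Leukotriene and prostanoid genes other than Alox5 included 0 called genes among the 23 left. Ptger3, a prostaglandin E receptor, read 8.32 and 8.13 on the vector and 9.09 and 9.22 on the BCR-ABL arrays (difference 0.93, limma adjusted p = 0.0699). Pla2g4a, the phospholipase that frees arachidonic acid, read 10.13 and 9.98 in vector against 10.78 and 10.68 in BCR-ABL cells (0.68, 0.0835). Tbxas1, thromboxane synthase, had 1.11 (0.142). Over the whole list 16 of 24 were above 0, with a median of 0.09. Without scaling between arrays that median was −0.005, against −0.11 for all genes. Lysosomal hydrolases leaned the other way at an unadjusted p below 0.05, with 2 higher and 7 lower of 30, 0 called and a median of −0.04. Psap, the precursor of the saposins, had −0.79 (0.0923) and Gm2a, the GM2 activator, −0.63 (0.255). Of 21 cathepsins 0 passed and 12 were above 0, with 1 higher and 3 lower at an unadjusted p below 0.05. Ctse had −1.24 (0.252) and, on the higher side, Ctsl had 0.51 (0.563).

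Lists tied to the signalling of the oncogene were described by the genes they hold. STAT5 and cytokine feedback genes numbered 16, with 0 called, 6 higher and 1 lower at an unadjusted p below 0.05, and a median of 0.16. Besides Socs2 they include Cish, another inhibitor of cytokine signalling, which read 7.66 and 7.19 on the vector and 8.59 and 8.30 on the BCR-ABL arrays (1.02, limma adjusted p = 0.132). They also include Il2ra, the interleukin 2 receptor alpha chain, which read 6.79 and 5.48 in vector against 8.17 and 8.17 in BCR-ABL cells (2.03, 0.103). On the lower side, Bcl6 read 7.86 and 7.64 in vector against 6.86 and 7.18 in BCR-ABL cells (−0.73, 0.221). Of 23 Ras and MAP kinase feedback genes 0 passed, 6 were higher and 1 lower at an unadjusted p below 0.05, and the median was 0.14. Phlda1 read 6.21 and 6.23 in vector against 7.19 and 7.02 in BCR-ABL cells (0.89, 0.0634), Ier3 had 0.92, Dusp4, a MAP kinase phosphatase, 0.45, and Rasgrp2, a Rap activator, −0.66. Of 23 Nrf2 target genes 0 passed, 4 were higher and 0 lower at an unadjusted p below 0.05, and the median was −0.02. It kept that sign in 11 of 16 alternatives, some of which could not move it. Its sign turned when vector replicate 1 (0.003) or 2 (0.08), or BCR-ABL replicate 1 (0.0075) or 2 (0.02), was left out. Centring each array on its median gave 0.075, cyclic loess −0.05 and no scaling between arrays −0.07. Slc7a11, the cystine transporter, had 0.55 (0.183) and Me1, malic enzyme, 0.77 (0.358). Among 24 non-receptor tyrosine kinases 0 passed; Fyn had 0.71 (0.196) and Blk, which the third virus carries, −0.48 (0.197).

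Cell cycle genes differed little in size. Of 40 genes of the G1/S step and DNA replication 0 passed and 0 had an unadjusted p below 0.05. Their differences ran from −0.25 to 0.27, around a median of 0.03. Of 28 G2/M genes 0 passed, 2 were lower at an unadjusted p below 0.05, 8 were above 0 and the median was −0.07. Both BCR-ABL arrays lay below both vector arrays for 11 of the 28 and above both for 2. Over all genes those shares were 14.9% and 22.1%. Mki67, a marker of cycling cells, had −0.26 (limma adjusted p = 0.452). Of 10 cyclin-dependent kinase inhibitors and D cyclins 0 passed, with 1 higher and 1 lower at an unadjusted p below 0.05. Cdkn2c, an inhibitor of the G1 kinases, had −0.77 (0.196) and Cdkn1c, an inhibitor linked to stem cell rest, 0.50 (0.338).

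Surface receptor families were split by type. Of 19 chemokine receptors 0 passed, 0 were higher and 5 lower at an unadjusted p below 0.05, and 3 were above 0. Their median was −0.25, and between −0.43 and −0.16 in 16 alternatives, some of which could not move it. Besides Xcr1 these were led by Cx3cr1, the fractalkine receptor (−0.87, limma adjusted p = 0.182), Ccr2, a receptor of inflammatory monocytes (−0.75, 0.198), and Ccr9, a receptor of thymus-seeding cells (−0.97, 0.342). The Ms4a family of membrane proteins, 19 genes, had 1 higher and 5 lower at that level. Their median was −0.19; it was −0.07 when vector replicate 1 was left out, and lay between −0.60 and −0.07 over the alternatives. Ms4a6b read 11.05 and 10.92 on the vector and 10.10 and 10.12 on the BCR-ABL arrays (−0.88, 0.0502). Of 62 lectin receptors of the Klr, Clec and Siglec families Klrd1 alone fell, with 4 higher and 10 lower at an unadjusted p below 0.05. Klrk1, which encodes NKG2D, had −0.85 (0.0529), and Clec4e, which senses mycobacterial lipid, 1.05 (0.0923). Of 99 orphan and adhesion G protein-coupled receptors 4 were higher and 12 lower, led by Gpr183, an oxysterol receptor (−0.94, 0.164), and by Adgra3 on the higher side (0.82, 0.133).

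Interleukin receptors had members on both sides. Of 41, Il1r2 alone rose, 5 were higher and 9 lower at an unadjusted p below 0.05, and the median was 0.00. Il18r1, the interleukin 18 receptor, read 8.70 and 7.47 on the vector and 9.78 and 10.12 on the BCR-ABL arrays (1.86, limma adjusted p = 0.133). Csf1r, the macrophage growth factor receptor, read 8.37 and 8.84 in vector against 7.21 and 7.90 in BCR-ABL cells (−1.05, 0.248), and Il7r, the lymphoid growth factor receptor, read 9.70 and 7.35 in vector against 6.63 and 6.73 in BCR-ABL cells (−1.84, 0.454). The Il7r difference was −0.67 (adjusted p = 0.22) when vector replicate 1 was left out and −3.02 (0.00202) when replicate 2 was. Il31ra, an interleukin 31 receptor chain, had −0.67 (0.0841). The paired receptors of the Cd300 and Lilr family numbered 13, with 0 called, 2 higher and 3 lower at an unadjusted p below 0.05. Among them Lilrb4a had 1.46 (0.0923) and Cd300lb −0.52 (0.153). Among 31 integrins 0 passed, with 5 higher and 2 lower. Itga2b, Itga6 and Itgb3, of stem cells and megakaryocytes, had 0.55, 0.52 and 0.48, and Itgax and Itgam, of myeloid and dendritic cells, −0.82 and −0.46. Of 30 adhesion molecules of the immunoglobulin type Ncam2 and Cd48 rose and the median was −0.01; Slamf1, which encodes CD150, read 7.12 and 7.80 in vector against 8.47 and 8.88 in BCR-ABL cells (1.21, 0.153).

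Further lists that passed the rule for description had members in both directions and medians near that of all genes. Of 75 actin filament regulators Enah alone rose, with 7 higher and 5 lower at an unadjusted p below 0.05 and a median of 0.01. Coro2a, a coronin, read 8.97 and 8.63 in vector against 9.78 and 9.59 in BCR-ABL cells (0.89, limma adjusted p = 0.121). Of 52 tropomyosins and myosins 0 passed, with 5 higher and 3 lower; Myo10, the myosin of filopodia, had 0.77 (0.14) and Tpm4, a tropomyosin, −0.67 (0.158). Of 23 Ste20-type kinases Stk39 alone rose, with 3 higher and 0 lower and a median of 0.04. Of 31 semaphorins, plexins and neuropilins, guidance ligands and their receptors, 0 passed, with 3 higher and 2 lower; Nrp1 had −0.89 (0.104) and Sema7a 0.79 (0.17). Of 26 tetraspanins, organisers of membrane domains, 0 passed, with 3 higher and 1 lower, led by Cd9 (0.90, 0.296).

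The enzyme and immune receptor lists that complete the set held 0 called genes. Of 22 glutathione S-transferases, enzymes that conjugate toxic compounds to glutathione, 2 were higher and 2 lower at an unadjusted p below 0.05, and the median was 0.05. Mgst2 had −0.95 (limma adjusted p = 0.224) and Gstm4 −0.48 (0.559). On the higher side Gsta4 had 1.47 (0.498) and Gstk1 0.65 (0.338). The vector arrays of Gsta4 were apart, at 8.88 and 6.83. Of 16 carbonic anhydrases 3 were higher and 1 lower, with a median of 0.04; Car12 had 0.61 (0.173) and Car1, the erythroid enzyme, −1.15 (0.323). Of 14 Fc receptors and Fc receptor-like genes 1 was higher and 2 lower, and the median of −0.20 was −0.05 when vector replicate 1 was left out. Fcer1g, the shared signalling chain, had −0.41 (0.44). Of 35 genes of the Toll-like receptor and Nlr families 3 were higher and 4 lower, with a median of −0.03; Tlr3, a sensor of double-stranded RNA, had −0.99 (0.313). Of 16 surface genes linked to leukemic stem cells 2 were higher and 4 lower. Their median of −0.08 turned to 0.01 when vector replicate 2 was left out and to 0.03 when BCR-ABL replicate 1 was. Besides Il2ra, Cd93 had −0.45 (0.192) and Clec12a −0.79 (0.332).

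**Figure D4:**
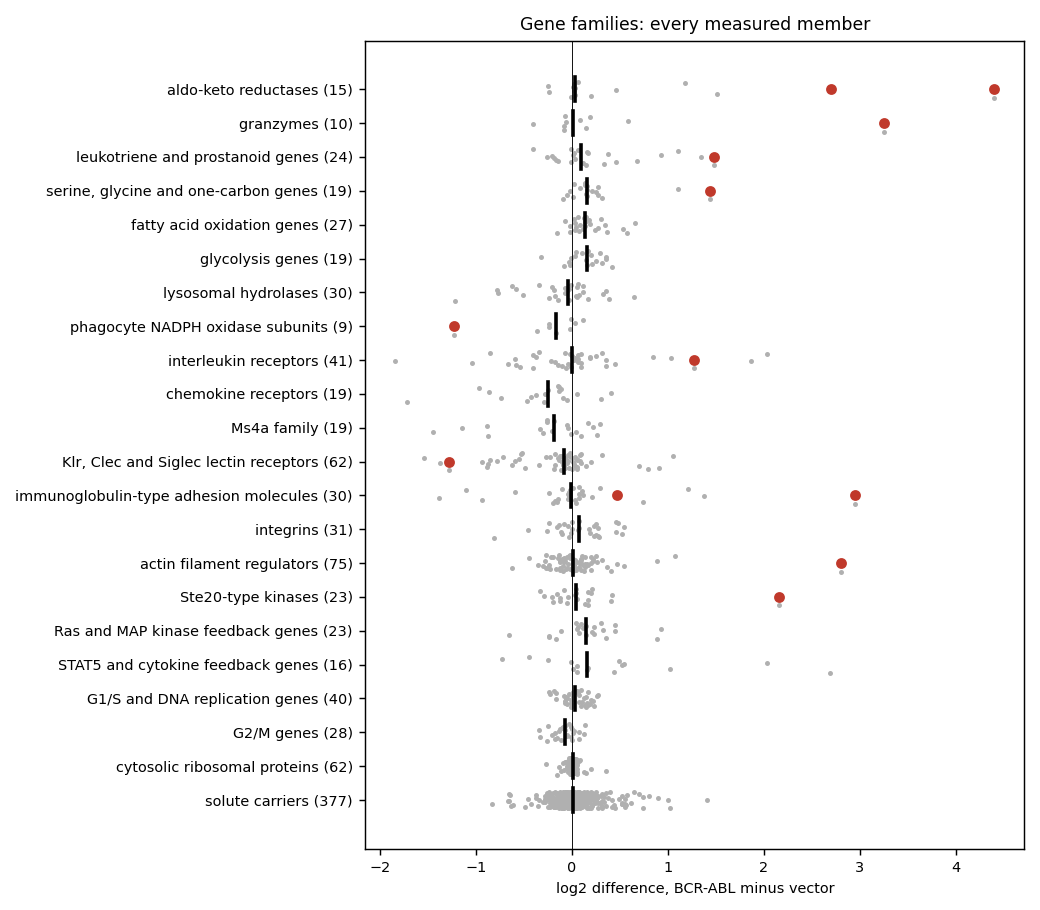
Each grey point is 1 measured gene of the list named at the left (number measured in brackets) on an axis of log2 difference, BCR-ABL minus vector; black bars are list medians and large red points are called genes in either direction. Most medians lie near 0, those of chemokine receptors (−0.25) and Ms4a genes (−0.19, or −0.07 when vector replicate 1 was left out) to the left, and no list shown holds more than 2 called genes.

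Families of immune defence genes were looked at after their values were seen, so their counts are a description. The Ifi200 family and Aim2, sensors of DNA, comprised 9 genes, of which 0 were above 0, 5 were lower at an unadjusted p below 0.05 and 0 passed. Ifi209 read 10.31 and 9.69 on the vector and 6.85 and 7.85 on the BCR-ABL arrays (−2.65, limma adjusted p = 0.0923). The family's median was −1.07. Leaving out vector replicate 1 gave −0.50, and leaving out its partner −1.65. Guanylate-binding proteins and immunity-related GTPases, 12 genes, had 0 called, 5 lower at that level and 1 above 0, with a median of −0.58. Here vector replicate 2 alone gave −0.10 and vector replicate 1 alone −0.98, and Iigp1 read 11.74 and 8.64 on the vector arrays. Both families were highest on vector replicate 1. The Gimap family, small GTPases of lymphocytes, had 8 of 8 genes above 0, 0 called and a median of 0.75. Its median level was 9.33 and 7.79 in vector cells and 9.18 and 9.24 in BCR-ABL cells, so vector replicate 1 matched the BCR-ABL cells. Without replicate 1 the median difference was 1.69, and without replicate 2 it was 0.17. The groups did not overlap for Gimap9, which read 9.52 and 8.81 on the vector and 10.63 and 10.44 on the BCR-ABL arrays (1.37, 0.0841). Of 7 Ifitm genes Ifitm1 alone rose and the median was 0.07; Ifitm3 had 0.15 (0.311). The 20 interferon response genes held 0 called and 8 lower genes at an unadjusted p below 0.05, with a median of −0.28 that was −0.02 when vector replicate 1 was left out and −0.06 when BCR-ABL replicate 1 was. The 9 genes of the Schlafen family had 3 higher and 2 lower at that level, 0 called and a median of −0.06, which was 0.26 when vector replicate 1 was left out. Slfn2, a regulator of lymphocyte quiescence, read 8.64 and 7.54 in vector against 9.42 and 9.36 in BCR-ABL cells (1.30, 0.232).

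Genes that mark blood cell types were read as a check on what the gate held. A bulk level cannot tell fewer cells of a type from less RNA per cell. Of 22 stem cell genes 0 passed, 12 were higher and 1 lower at an unadjusted p below 0.05, and 20 were above 0. Their median level was 7.97 and 7.92 on the vector and 8.63 and 8.93 on the BCR-ABL arrays, and the median difference was 0.33. Meis1, a homeobox factor of stem cells, read 9.75 and 9.44 in vector against 10.51 and 10.61 in BCR-ABL cells (0.96, limma adjusted p = 0.0565). Mecom, which encodes Evi1, read 7.89 and 6.54 in vector against 9.15 and 8.98 in BCR-ABL cells (1.85, 0.164). Megakaryocyte genes were above 0 in 14 of 14, with 9 higher at an unadjusted p below 0.05, 0 called and a median of 0.51. Their median level was 8.16 and 7.74 on the vector and 8.46 and 8.37 on the BCR-ABL arrays.

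Genes of mast cells, basophils and eosinophils lay mostly on the higher side. The list holds Gzmb and Il6, which are its 2 called genes. Of 19 measured, 9 were higher and 2 lower at an unadjusted p below 0.05, and the median was 0.68. The list's median level was 7.41 and 7.12 on the vector and 8.48 and 8.34 on the BCR-ABL arrays; BCR-ABL-Blk cells gave 8.33 and 7.39. Cma1, a mast cell chymase, read 6.91 and 6.94 in vector against 8.65 and 8.81 in BCR-ABL cells (1.80, limma adjusted p = 0.157). Cpa3, the mast cell carboxypeptidase, read 9.87 and 9.56 in vector against 11.39 and 11.47 in BCR-ABL cells (1.72, 0.255), and Fcer1a, of the IgE receptor, 7.51 and 6.67 in vector against 9.22 and 8.98 in BCR-ABL cells (2.02, 0.525). Eosinophil granule genes lay on the other side, with −0.98 for Prg2 (0.15) and −1.02 for Prg3 (0.332). The part of such cells in the changes of Gzmb and Il6 was not tested.

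The lists of B cell, multipotent and lymphoid-primed progenitor, and monocyte genes were lower in BCR-ABL cells in median. Of 17 B cell genes 0 passed, 11 were lower at an unadjusted p below 0.05 and 3 were above 0. Their median level was 9.68 and 8.08 on the vector and 6.94 and 7.44 on the BCR-ABL arrays. The median difference was −1.38; it was −0.66 when vector replicate 1 was left out and −2.19 when replicate 2 was. Of 11 genes of multipotent and lymphoid-primed progenitors Cd48 rose and 8 were lower at that level, with a median of −0.83; Dntt, the terminal transferase, had −1.78 (limma adjusted p = 0.104) and Satb1 −0.83 (0.0923). Monocyte and macrophage genes were below 0 in all 16 measured, 12 of them at an unadjusted p below 0.05, with 0 called. Their median was −0.76 and lay between −0.92 and −0.58 in 16 alternatives, some of which could not move it. Irf8, the factor of monocyte and dendritic cell fate, had −1.33 (0.106), and Ly86, a partner of a Toll-like receptor relative, read 9.78 and 10.33 in vector against 7.52 and 8.37 in BCR-ABL cells (−2.12, 0.22). The monocyte list's vector arrays, 9.23 and 9.44 in median, were close to each other, while those of the B cell list were not.

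The other MHC class II genes lay on the side of H2-Ab1. Of 9 measured, H2-Ab1 alone fell, 8 were lower at an unadjusted p below 0.05, 0 were above 0 and the median was −0.79. Cd74, the invariant chain, read 10.54 and 10.51 on the vector and 8.19 and 9.15 on the BCR-ABL arrays (−1.85, limma adjusted p = 0.0677). H2-Aa, the partner chain of H2-Ab1, read 11.37 and 10.66 in vector against 9.57 and 9.74 in BCR-ABL cells (−1.36, 0.0841), and H2-Eb1 had −1.26 (0.132). The list's median level was 10.45 and 9.93 on the vector and 8.57 and 9.15 on the BCR-ABL arrays. Dendritic cell genes had 6 of 12 lower at that level, 0 called and a median of −0.36. The part of antigen-presenting or B cells in the fall of H2-Ab1, Cybb and Tifab was not tested.

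Erythroid and neutrophil medians depended on the vector arrays. Of 13 erythroid genes 6 were lower at an unadjusted p below 0.05 and 0 passed; the median of −0.34 was −0.13 when vector replicate 1 was left out and −0.77 when replicate 2 was. Of 17 neutrophil granule genes 4 were lower and 0 passed. Their median of −0.27 became −0.55 with replicate 2 as the lone vector array and 0.02 with replicate 1, so its sign rested on 1 array; it was −0.07 when BCR-ABL replicate 1 was left out. T and NK cell genes, 19 in number, had a median of 0.01 and, besides Klrd1, 0 called genes; the median over 13 stromal and endothelial genes was 0.04, with 0 called. Flt3, a receptor of multipotent progenitors, had a difference of −0.20 (limma adjusted p = 0.747).

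**Figure D5:**
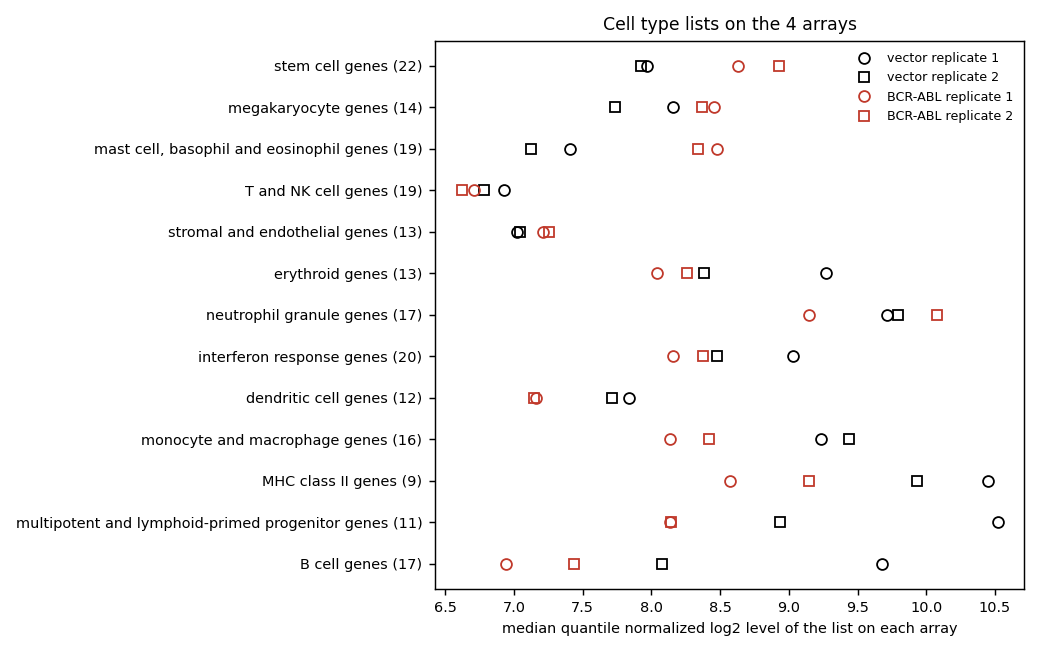
Each mark is the median log2 level of a cell type list (number of measured genes in brackets) on 1 array; black marks are vector, red marks BCR-ABL, circles replicate 1 and squares replicate 2. The black marks of B cell genes (9.68 and 8.08) stand further apart than those of monocyte genes (9.23 and 9.44), and both lists' red marks lie to the left of them.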

How the data were processed

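RNA of sorted cells was hybridised to 1 Affymetrix whole-transcript array per sample. The deposited values are log2 signals of 35557 probe sets, made by the authors with Affymetrix Expression Console 1.1 and RMA, per the submitters' processing notes; the options, like the genome build, are not given in those notes. The deposited array medians ran from 7.01 to 7.52, so the arrays were quantile normalized, which removes shifts of whole arrays. Platform annotation gave 21789 probe sets 1 symbol and 1621 several; the latter stayed unnamed. Where a gene had several (999 genes), the probe set of highest mean over all arrays was kept, leaving 19938 genes, with no filter on level. Detection calls were not used, so folds of low signals may be understated.

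Differences were fitted with limma 3.58.1 in R 4.3.3 (lmFit, eBayes with a trend) over all 6 arrays, with 3 residual and 4.40 prior degrees of freedom, adjusted over 19938 genes. The number of arrays limits the precision. Same-numbered replicates did not deviate together (correlations of −0.06, 0.08 and 0.03), so no block was used. Named are all called genes, the 20 nearest to the threshold with at least 2-fold difference, up to 4 members of each described list and 8 fixed genes, Ly6a among them; predicted genes and the like would only have been counted. A list is described where it holds a called gene, or where over 15% of at least 10 measured members have an unadjusted p below 0.05; cell type lists are always given, and 1 list that met the rule is not reported here. The members and 95 gene lists were chosen with earlier results of these data known, and 5 lists and 43 genes were added after their values were seen. Lists were described by counts and medians, without a test. The fit was tested on simulated data. Figures were made with matplotlib 3.10.9 and pandas 2.3.3 (Python 3.11.15, numpy 2.4.6). Alternatives were other scalings, array weights, filters, probe set rules, a replicate block and leaving out each array.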

Additional observations from a re-analysis of the deposited data

How the results depend on the processing

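Of 485 values of the 29 called genes under alternative settings, 485 kept their sign and 327 stayed past the threshold. Akr1c12 alone passed in every setting. The arrays of these genes do not overlap between the groups, so leaving out an array or refitting the same values could not turn a sign. For those settings the kept signs are no measure of stability. List medians could not move either in settings that change only the estimate of the spread or the BCR-ABL-Blk arrays. The counts varied between settings. Against 24 higher and 5 lower genes, the deposited values without scaling between arrays gave 176 and 225, with a prior so tight that its degrees of freedom were unbounded. Cyclic loess gave 10 lower genes and the mean of all probe sets of a gene also gave 10. The 4 arrays of vector and BCR-ABL alone gave 2 lower genes. The fit without a trend gave 12 and 3, the robust fit 49 and 20, and the filter on genes above the median level, with 9969 genes tested, 38 and 15. Leaving out 1 array gave from 1 to 347 higher and from 0 to 160 lower genes. The replicate block gave 23 higher and 6 lower genes, of which 19 and 3 are shared with the fit without it. Fitting all 35557 probe sets, an alternative added after seeing the data, gave 1 and 0. Except where the setting itself removes genes or arrays, the cause was not tested. Values of 253 named genes kept to the same side of the threshold in 3703 cases, gained it in 368 and lost it in 158. Detection above background was not measured, so low levels limit what a fold shows.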

Other observations

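In the fit of all 35557 probe sets, 13768 had no single gene name, and 0 of those passed in either direction (limma, adjusted p below 0.05). Among families that were not described above, Hox, Meis and Pbx factors (45 genes) had 3 members higher at an unadjusted p below 0.05 and 30 above 0, with Meis1 as the largest. Collagens and laminins (54 genes), potassium channels (92) and ephrins with their receptors (21) held 0 called genes, with medians of −0.02, −0.01 and −0.01. Heme synthesis genes (8) had a median of −0.23, with 2 above 0 and 0 called.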
